A study of Mus musculus with 3 samples.

Results

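The Hox genes measured here are the mammalian homeobox genes of the Hoxa, Hoxb, Hoxc and Hoxd clusters, in endothelial cells of the adult mouse renal medulla. The members were all genes with a single-gene probe set whose platform symbol is Hox, a cluster letter and a paralog number, and each gene was represented by its probe set with the highest mean. This gave 37 Hox genes among 19938 measured genes, with 10 in Hoxa on chromosome 6, 9 in Hoxb on chromosome 11, 9 in Hoxc on chromosome 15 and 9 in Hoxd on chromosome 2. Every member had 1 probe set. Hoxb8 was read only by a probe set shared with Hoxb7, which stood at 9.27 on the log2 scale on all 3 arrays.

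Hox genes encode homeodomain transcription factors that give cells along the body axis their positional identity. Genes of the same paralog number in different clusters descend from a common ancestral gene, low-numbered genes act in anterior and early domains, and high-numbered genes act in posterior and distal ones. Adult cells keep a part of this pattern through Polycomb repression and trithorax-group maintenance. In endothelium, individual Hox proteins are known to regulate vascular receptors, integrins and proteases during angiogenesis and quiescence.

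There was 1 group of 3 samples, labelled Tie2_Med 1 to 3 and called replicates 1, 2 and 3 here. Each was RNA of cells sorted by GFP from the medulla of adult male FVB/N mice carrying the transgene Tg(TIE2GFP)287Sato, in which the promoter of Tie2, a receptor kinase of endothelial cells, drives GFP. Each sample pooled 2 kidneys, and the RNA was amplified in 1 round and read on an Affymetrix mouse whole-transcript gene array. With 1 group and no control samples, the question that these arrays address is which Hox genes gave a signal in RNA of the sorted cells. Each level was compared with a limit.

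Levels are log2 of the array's intensity units. The first limit was 100 units (log2 6.64), the level in the study's own filter. The second was a background taken from these arrays, drawn at the 95th percentile of the means of 1247 probe sets for olfactory, vomeronasal and bitter taste receptors, which act mainly in chemosensory cells. This receptor background was 7.95 (247 units), and 34.7% of the receptor probe sets reached 100 units on all arrays. A gene was called above or below a limit by limma at an adjusted p of at most 0.05 over all genes. In all, 46.3% of genes had the same value on all arrays, so limma's error for such a gene was only 1.97e-05. This holds for 18 of the Hox genes, whose SD is 0 and whose p rests on the prior alone. Levels identical to the last digit are unusual for separate pools, the probe-level files were not used here, and the origin of the identical values was not tested. The calls were repeated with the prior variance of genes with 3 different values, where that error was 0.0591.

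The sorted cells gave signal from endothelial markers. All 8 endothelial markers lay above the receptor background, with Pecam1, a junctional adhesion molecule, at 12.44 ± 0.08 (SD, n = 3) and Tek, the gene of Tie2 itself, at 12.80 ± 0.19. The markers summed to between 39828 and 45405 units per array. Above the background were also 5 of 8 collecting duct markers (2438 to 2769 units per array), 2 of 4 thick ascending limb markers (1566 to 4534) and 2 of 4 proximal tubule markers (912 on each). So were 1 of 6 pericyte and smooth muscle markers (1288 to 1322), 2 of 6 interstitial fibroblast markers (1347 to 1348) and 1 of 6 leukocyte markers (904 to 905). Over all genes, 52.5% were above, so these counts do not tell whether such cells were in the samples. Array medians differed by at most 0.03, and no value is 0 on this scale. These sums compare arrays within a list, not lists with each other, since probes differ in affinity.

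Signal above the receptor background came from most Hoxb and Hoxa genes and part of Hoxd, and none of the Hoxc genes reached that background. The p of limma measures the spread between arrays around the limit. Differences in affinity between Hox and receptor probe sets were not tested, nor was the cell type that gave the signal. Of 37 Hox genes, 19 were at or above that background on all 3 arrays, and the same number was called above it by limma, with 15 below and 3 not called. Over all genes, 54.9% were at or above it on all arrays, 52.5% were called above, 41.4% below, and 6.03% not called. The share of Hox genes above, 51.4%, was thus near that of genes in general. Under it on every array were 17 Hox genes, against 42.5% of all genes. With the other prior 18 were above (49.7% of all genes) and 16 below (37.9%). Without replicate 2 limma called 12 above from 2 arrays, and the share of all genes in that fit was not counted.

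The limit of 100 units separated the Hox genes far less. Of 37, 36 reached it on all arrays, against 85.4% of all genes, and limma called 36 above (84.5% of all genes) and 1 below (13.7%). That exception was Hoxc11, at 6.53 (92.5 units) on every array. Between the limits, at 100 units or more but under the receptor background on every array, lay 16 members. The share of all genes between the limits was not counted. Of all genes, 85.4% reached 100 units on all arrays and 42.5% were under the receptor background on every array. With the other prior, limma called 33 above 100 units (83.0% of all genes) and none below. Hoxc5, Hoxc6, Hoxc10 and Hoxc11 were then not called (5.05% of all genes, against 1.82% and no Hox gene with the prior from all genes), with adjusted p of 0.0666, 0.213, 0.720 and 0.136. At 200 units, limma called 21 Hox genes above and 14 below, and 21 reached that limit on all arrays, against 62.3%, 32.9% and 64.2% of all genes.

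**Figure D1:**
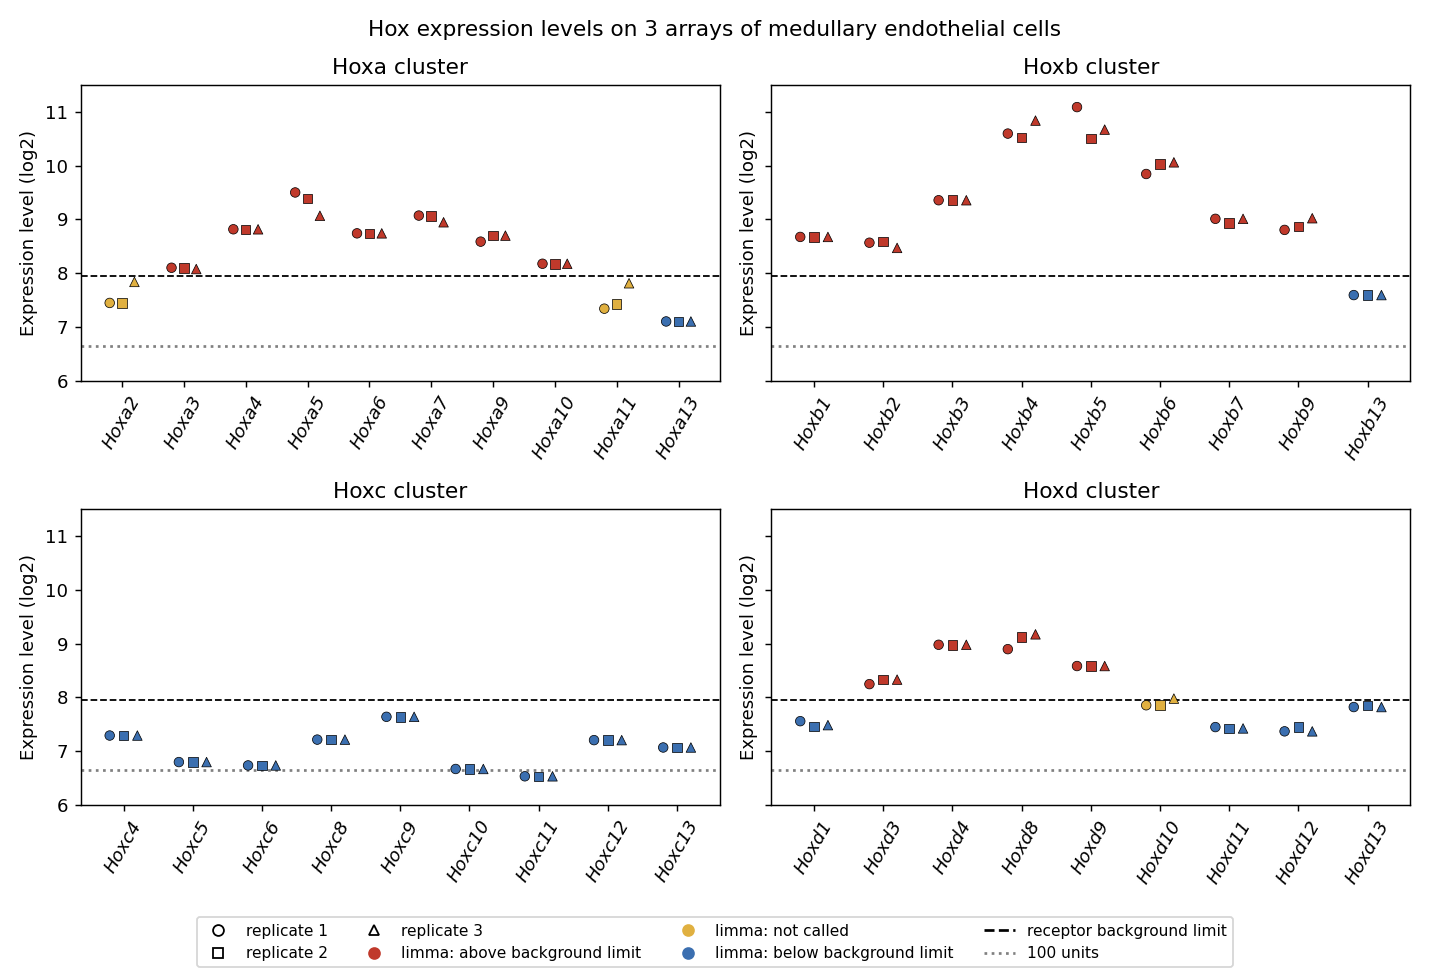
Level of each of the 37 measured Hox genes on each array (log2 units), by cluster and in the order of the paralog number; symbols are the 3 arrays, colours give the limma call against the receptor background, and the lines mark 100 units (6.64) and the receptor background (7.95). All measured Hoxb genes except Hoxb13 lie over the background on all arrays, and all 9 Hoxc genes lie under it.

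In the Hoxb cluster, 8 of 9 measured genes were above the receptor background and 1 was below, against 52.5% and 41.4% of all genes. Hoxb5, which activates the gene of the VEGF receptor Kdr in endothelial precursors, was at 11.09, 10.51 and 10.67 on the 3 arrays. Hoxb4, a regulator of blood stem cell expansion, was at 10.60, 10.52 and 10.84. Hoxb6, a gene of trunk mesoderm, was at 9.84, 10.03 and 10.06. The lowest of these 9 array values, that of Hoxb6 in replicate 1, was 1.90 above the background, so every array of these genes exceeded it. limma gave an adjusted p of 0.00249 for Hoxb5 (mean 10.76 ± 0.30, SD, n = 3), 0.000791 for Hoxb4 (10.65 ± 0.16) and 0.000713 for Hoxb6 (9.98 ± 0.12).

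A further 5 Hoxb genes were above the background. Hoxb3, a gene of hindbrain and neck patterning, was at 9.36 on all 3 arrays, and Hoxb1, which acts in the early hindbrain, was at 8.67 on all 3. Hoxb2, another hindbrain gene, was at 8.57, 8.59 and 8.47. All arrays of these 3 genes lay over the background, Hoxb2 with an adjusted p of 0.00244 in limma. Hoxb7, whose promoter is widely used to mark the ureteric bud and collecting duct, was at 9.01, 8.93 and 9.01. Hoxb9, a thoracic patterning gene, was at 8.80, 8.87 and 9.02. Both lay above on every array (adjusted p = 0.00039 and 0.003 in limma). Hoxb13, a gene of the tail bud and prostate, was at 7.59 on all 3 arrays, below the background.

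Hoxb7 stands beside the collecting duct markers, since that epithelium surrounds the medullary vessels and is known to use the gene. Aqp2, the collecting duct water channel, was at 9.67, 9.67 and 9.27, lowest in replicate 3, where Hoxb7 stood at 9.01 as in replicate 1. The markers Aqp3 (8.55), Hsd11b2 (8.25), Krt8 (8.65) and Cdh1 (8.69) were also above the receptor background, and Scnn1b (7.29) and Gata3 (7.25) were below it. Scnn1g, a subunit of the epithelial sodium channel, was below it too and under 100 units on every array, at 6.43. Of the 8 markers, 5 were lower in replicate 3 than their mean on the other arrays, and 3 were the same. The part of collecting duct RNA in the levels of Hox genes was not tested. In sorted bulk RNA, fewer cells that express a gene and less RNA per cell cannot be told apart.

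In the Hoxa cluster, 7 of 10 measured genes were above the receptor background, from Hoxa3 to Hoxa10, against 52.5% of all genes. Hoxa5, which restrains angiogenesis in endothelial cells, was at 9.50, 9.39 and 9.07 (adjusted p = 0.00602 in limma). Hoxa9, a regulator of endothelial differentiation and of the nitric oxide synthase gene Nos3, was at 8.59, 8.70 and 8.70 (adjusted p = 0.00178). Hoxa7, a trunk patterning gene, was at 9.07, 9.07 and 8.95 (adjusted p = 0.000906). All arrays of these genes exceeded the background, Hoxa5 by at least 1.12. Hoxa4 and Hoxa6, both genes of the cervical and thoracic axis, were at 8.82 and 8.74 on all 3 arrays, and Hoxa10, a gene of the reproductive tract and lumbar axis, was at 8.18 on all 3. Hoxa3, which promotes endothelial migration in wound repair, was at 8.10, 8.10 and 8.08 and lay close to the limit, and its adjusted p was 0.00191 with the prior from all genes and 0.0789 with the other. limma called 4 Hoxa genes above the background without replicate 2.

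The remaining Hoxa genes stayed under the receptor background on every array. Hoxa2, which patterns the second branchial arch, was at 7.45, 7.45 and 7.84, and Hoxa11, which acts in the metanephric mesenchyme of the early kidney, was at 7.34, 7.43 and 7.81. Replicate 3 was the highest array for both, and limma called neither (adjusted p = 0.0861 and 0.0831), whereas with the other prior both were below (0.0345 and 0.0301). Hoxa13, a gene of the distal limb and urogenital tract, was at 7.10 on all 3 arrays and was called below.

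In the Hoxd cluster, 4 of 9 genes were above the background, 4 below and 1 was not called, against 52.5%, 41.4% and 6.03% of all genes. Hoxd8, a trunk patterning gene, was at 8.90, 9.13 and 9.17 (adjusted p = 0.00387 in limma). Hoxd3, which raises integrin levels in angiogenic endothelium, was at 8.25, 8.33 and 8.33 (adjusted p = 0.00412). Hoxd4, a gene of hindbrain and cervical patterning, was at 8.98 and Hoxd9, a gene of the posterior axis and limb, at 8.58, each on all 3 arrays. None of these 4 genes had an array under the background. limma called 2 of them above it without replicate 2, and likewise 2 without replicate 3.

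Around this stretch the Hoxd levels lay at or under the limit. Hoxd10, known to keep endothelium quiescent, was at 7.85, 7.85 and 7.98, the only Hox gene with arrays on both sides of the background, and was not called (adjusted p = 0.3 in limma). Hoxd13, a distal limb gene, was at 7.82, 7.85 and 7.82, under the limit on every array, with an adjusted p of 0.0059 and of 0.134 with the other prior. Hoxd1, which acts in sensory neurons, was at 7.56, 7.46 and 7.48. Hoxd11, a partner of Hoxa11 in kidney and forelimb development, was at 7.45, 7.42 and 7.42. Hoxd12, a limb gene, was at 7.37, 7.45 and 7.37. All arrays of these last 3 genes lay under the background and limma called each below.

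All 9 Hoxc genes were below the receptor background, and all 9 had the same value on the 3 arrays. Over all genes, 41.4% were below and 46.3% had the same value on all arrays. Hoxc9, a gene of thoracic patterning, was at 7.64 and Hoxc4, a cervical gene, at 7.29. Hoxc8, a brachial and thoracic gene, was at 7.21 and Hoxc12 at 7.20. Hoxc13, a gene of hair and nails, was at 7.07, Hoxc5 at 6.80, Hoxc6, a gene of the thoracic axis, at 6.73, Hoxc10, a gene of the lumbar axis and hindlimb, at 6.67 and Hoxc11, the Hoxc member of the group that patterns the kidney mesenchyme, at 6.53. Each of the 9 calls below was also made with the other prior, where the adjusted p in limma ranged from 8.2e-05 for Hoxc11 to 0.00867 for Hoxc9.

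By paralog group, the genes above the background were contiguous within Hoxa, Hoxb and Hoxd when all 3 arrays and the 95th percentile were used. They ran from group 3 to 10 in Hoxa, 1 to 9 in Hoxb and 3 to 9 in Hoxd, and no measured member inside these stretches was outside the call. Of groups 1 to 3, 5 of 7 genes were above and 1 below. Of groups 4 to 8, 10 of 14 were above and the 4 below were all Hoxc genes. Of groups 9 to 13, 4 of 16 were above and 10 below. Over all genes, 52.5% were above and 41.4% below. None of the 9 genes of groups 11 to 13 was above. Of the groups measured in all clusters, 4 and 9 each had 3 of 4 genes above, with the Hoxc member below, and group 13 had 0 of 4 above. limma called 3 genes of groups 1 to 3 above without replicate 1 and 2 without replicate 2, and 2 genes of groups 9 to 13 without replicate 2, while the number of Hoxc genes above was 0 without any 1 replicate. The limma calls were then no longer contiguous. Inside the remaining stretches, Hoxa5 and Hoxb2 were not called without replicate 1, and Hoxa5, Hoxa9, Hoxb2 and Hoxd8 without replicate 2. Hoxa9, Hoxb5 and Hoxd8 were not called without replicate 3. Each of these genes was nonetheless over the background on every array. With all 3 arrays but the 90th percentile as limit, Hoxd genes above ran from group 3 to 13, and Hoxd11 and Hoxd12 were not above.

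**Figure D2:**
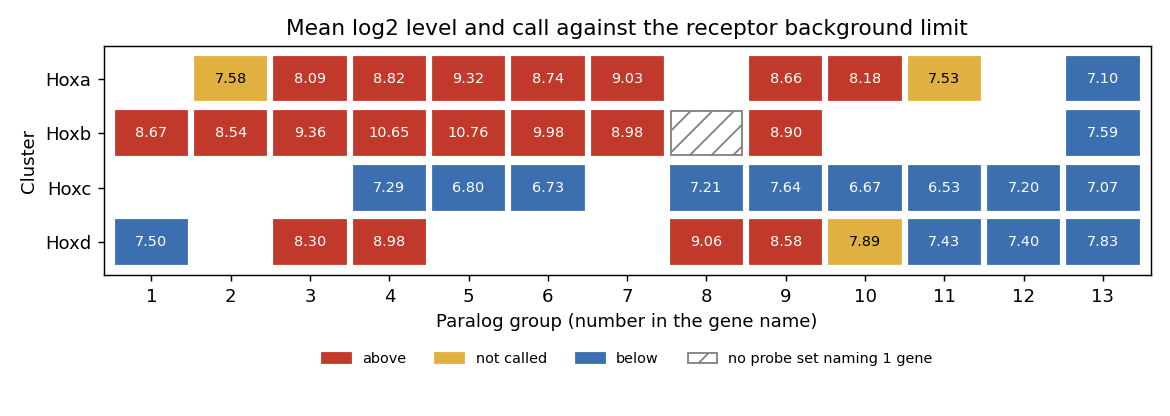
Call of each measured Hox gene against the receptor background, with cluster in rows and paralog number in columns; colour gives the call (above, below or not called, limma over all genes) and the number in a cell is the mean log2 level over 3 arrays. Among measured genes, those above the background form a single stretch in Hoxa (3 to 10), Hoxb (1 to 9) and Hoxd (3 to 9). None is in Hoxc or in groups 11 to 13. The hatched cell is Hoxb8, which had no probe set of its own.

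A stricter background, the 99th percentile of the receptor probe sets (8.72), left 11 Hox genes above it by limma, 24 below, and 12 at or above it on all arrays, against 30.1%, 61.9% and 32.8% of all genes. The 11 were Hoxa4, Hoxa5, Hoxa6, Hoxa7, Hoxb3, Hoxb4, Hoxb5, Hoxb6, Hoxb7, Hoxd4 and Hoxd8, all of paralog groups 3 to 8. Hoxa6 passed by 0.02 and Hoxa4 by 0.10. The annotated spans of 10 members overlapped in 6 pairs in RefSeq, Hoxa3 with Hoxa4, Hoxa5 and Hoxa6, Hoxb3 with Hoxb4, Hoxd3 with Hoxd4, and Hoxd10 with Hoxd11, so a probe in a shared span could read either gene of a pair.

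The RefSeq sequence of the 250 bases upstream of the annotated start is shown for Hoxa10 and Hoxd9, the last genes above the background in Hoxa and Hoxd. It is also shown for the group 13 gene of each of these clusters, Hoxa13 and Hoxd13, both called below the background. Hoxd13 was not called with the other prior (adjusted p = 0.134 in limma). Each CG dinucleotide is in capitals. The windows were chosen after their values were seen and are chr6:52240855-52241104 (minus strand), chr2:74697513-74697762 (plus), chr6:52260881-52261130 (minus) and chr2:74667975-74668224 (plus) of GRCm38.p6, and each ends at the base before the annotated start.
Hoxa10: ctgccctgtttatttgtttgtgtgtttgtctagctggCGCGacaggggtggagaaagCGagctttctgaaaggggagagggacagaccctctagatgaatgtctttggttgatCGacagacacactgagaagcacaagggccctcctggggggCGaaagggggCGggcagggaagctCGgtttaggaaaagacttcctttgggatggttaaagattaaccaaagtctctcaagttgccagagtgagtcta
Hoxd9: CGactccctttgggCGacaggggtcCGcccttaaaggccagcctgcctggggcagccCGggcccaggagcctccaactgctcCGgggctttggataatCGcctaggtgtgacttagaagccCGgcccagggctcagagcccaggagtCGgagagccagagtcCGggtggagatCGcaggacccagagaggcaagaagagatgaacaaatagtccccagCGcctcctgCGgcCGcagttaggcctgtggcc
Hoxa13: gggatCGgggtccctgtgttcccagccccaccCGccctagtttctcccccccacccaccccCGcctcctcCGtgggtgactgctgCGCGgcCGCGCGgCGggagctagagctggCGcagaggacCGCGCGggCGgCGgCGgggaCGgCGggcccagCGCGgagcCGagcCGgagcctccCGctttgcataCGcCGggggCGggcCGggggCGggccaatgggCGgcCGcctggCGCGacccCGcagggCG
Hoxd13: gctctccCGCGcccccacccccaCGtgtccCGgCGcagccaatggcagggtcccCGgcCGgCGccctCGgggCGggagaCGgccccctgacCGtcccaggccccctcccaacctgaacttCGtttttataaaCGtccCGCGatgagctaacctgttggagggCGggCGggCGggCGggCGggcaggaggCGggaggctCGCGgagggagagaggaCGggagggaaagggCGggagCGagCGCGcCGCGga

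Hoxa10 had 7 CG dinucleotides in the window shown and 20 in that of its other annotated start, and Hoxd9 had 13, while Hoxa13 had 35 and Hoxd13 had 31. The promoter table held 23 windows for 21 of the 37 Hox genes, with a median of 13 CG (range 2 to 35), against a median of 6 over 32851 windows of all genes. The 13 windows of genes above the background had a median of 12 and the 10 others a median of 16.5, with the ranges 3 to 28 and 2 to 35 overlapping. The letters CCAAT, read on both strands, were in 13 of the 23 Hox windows (56.5%) and in 33.8% of all windows, among them those of Hoxa13 and Hoxd13. TATAAA, on both strands, was in 3 (13%, against 12.4% of all), Hoxd13 among them, and in no Hox window did a match to the first overlap a match to the second. Methylation and factor binding were not measured, and a match to these letters is a description of the sequence.

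The clusters also hold microRNA genes, which repress target transcripts through bases 2 to 8 of the mature strand, the seed. The 5p strands of the 2 families with a member measured in more than 1 cluster are printed from RefSeq with the seed in capitals, since members of a family share it and differ by a single base outside it.
miR-10a-5p: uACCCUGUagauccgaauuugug
miR-10b-5p: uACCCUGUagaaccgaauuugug
miR-196a-5p: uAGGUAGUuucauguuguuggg
miR-196b-5p: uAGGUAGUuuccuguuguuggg

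Counted from the 5′ end, miR-10b differs from miR-10a by U12A, and miR-196b from miR-196a by A12C. In GRCm38.p6, miR-10a-5p is at chr11:96317186-96317208 (plus strand) in the Hoxb cluster and miR-10b-5p at chr2:74726074-74726096 (plus) in Hoxd. miR-196a-5p is encoded at chr11:96265187-96265208 (plus) in Hoxb and at chr15:102973365-102973386 (plus) in Hoxc, and miR-196b-5p at chr6:52230129-52230150 (minus) in Hoxa. A probe set of the array reads amplified RNA from the gene. Whether any mature strand contributed to its level was not tested, so the levels are not amounts of the printed strands.

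The probe sets of the miR-10 genes lay under 100 units, beside Hox neighbours above the receptor background. Mir10a was at 4.18, 4.23 and 4.22 (mean 18.5 units) and Mir10b at 4.32 on all 3 arrays (20.0 units). In the miR-196 family, whose members target Hox transcripts, Mir196a-1 was at 6.97, 7.03 and 7.03 and Mir196a-2 at 6.53 on all 3, both below the background. Mir196b was at 8.16, 7.87 and 7.97, with arrays on both sides of the limit, and was not called. Mir615, inside Hoxc5, was at 9.26 on all 3 arrays and was called above, where Hoxc5 itself was below. Both mature strands that RefSeq lists for it are shown, at chr15:103014926-103014947 (5p, plus) and chr15:103014969-103014990 (3p, plus). Whether either contributed to the level of its probe set was not tested.
miR-615-5p: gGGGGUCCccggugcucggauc
miR-615-3p: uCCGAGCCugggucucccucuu

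Of the long noncoding genes, Hoxd3os1, a transcript antisense to Hoxd3, was at 9.26, 9.19 and 9.25, above the background on every array, and its other probe set was at 7.72 on all 3, below. The 2 probe sets thus stood on different sides. Haglr, a transcript between Hoxd1 and Hoxd3, was at 7.77, 7.03 and 7.97, lowest in replicate 2, with the largest SD among the noncoding genes (0.49), and was not called. Hottip, from the Hoxa13 end, was at 7.04, 7.10 and 7.11, below. Hoxaas2, a Hoxa antisense transcript, was at 7.86, 7.79 and 7.86, below with the prior from all genes and not called with the other. Of the 10 noncoding genes measured, of 22 names written, 2 were above, 6 below and 2 not called. Over all genes these shares were 52.5%, 41.4% and 6.03%.

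The cofactors through which Hox proteins bind DNA were mostly above the receptor background. Of 8 measured TALE homeodomain genes (of 9 written), 7 were above and 1 below, against 52.5% and 41.4% of all genes. Pbx2 was at 9.07 ± 0.12 (SD, n = 3), Pbx3 at 8.60 ± 0.20, Pbx4 at 8.33 ± 0.01 and Meis1 at 8.96 ± 0.04. The gene below was Pknox2, at 7.30 on all 3 arrays.

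The machinery that represses and maintains Hox loci was above the background in every measured member. All 15 Polycomb genes measured (of 16 written) were above, among them the methyltransferases Ezh2 at 8.93 ± 0.12 and Ezh1 at 9.99, with their partners Eed at 10.27 and Suz12 at 10.43 in the mean. Cbx8 was not called with the other prior. All 12 genes in the list of trithorax-group and demethylase genes, which also held Dot1l and Ctcf, were above too. They included the methyltransferases Kmt2a at 11.18, Kmt2b at 9.05, Kmt2c at 10.60 and Kmt2d at 11.43. These genes act in most cell types, and over all genes 52.5% were above.

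Inputs known to set Hox expression in the embryo were divided. Of 12 measured (of 13 written), 6 were above the receptor background, 4 below and 2 not called, a count near that of all genes. Of the caudal homeobox genes, Cdx1 was at 7.83 on all 3 arrays, Cdx2 at 8.05 and Cdx4 at 4.94, below, above and below in turn, with Cdx1 and Cdx2 not called under the other prior. The retinoic acid receptor Rara was at 9.14 ± 0.09 and called above, as were Rarb (10.22 ± 0.15) and Rarg (9.34 ± 0.04). Also below were Aldh1a2, the main retinoic acid synthase of the embryo, at 6.54 and Gmnn, a replication inhibitor that binds Hox proteins, at 7.36.

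Genes that flank the clusters are no Hox genes but share their chromosome neighbourhood. Of 15 measured (of 19 written), 8 were above the receptor background (53.3%, near the 52.5% of all genes) and 7 below (41.4% of all genes). With the other prior 7 were above, 5 below and 3 not called. On the Hoxa flank, Evx1, the homeobox gene next to Hoxa13, was below at 7.55, whereas Skap2 (10.29), Hibadh (8.43) and Tax1bp1 (11.09) were above. Beside Hoxb, Skap1 at 7.68 and Ttll6 at 7.24 were below.

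Genes known as endothelial targets of Hox proteins were above the background in 10 of 12 cases, with 1 below and 1 not called. Over all genes, 52.5% were above, 41.4% below and 6.03% not called. With the other prior, 11 of the 12 were above and 1 below, against 49.7% and 37.9% of all genes. Kdr was at 12.17 ± 0.21 (SD, n = 3), Nos3 at 9.02 on all 3 arrays and Ephb4, a venous receptor kinase, at 10.43 ± 0.01. Sele, an adhesion molecule of activated endothelium, was at 8.14, 8.56 and 8.23, over the background on every array but not called, and was called above with the other prior. Mmp14, a matrix protease, was at 7.75 and below. Several of these genes also mark endothelium in general, and whether Hox proteins regulate them in these cells was not tested.

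Homeobox genes outside the Hox clusters were split as well. Of 74 measured (of 80 written), 36 were above the background and 38 below, against 52.5% and 41.4% of all genes. The share above was 48.6%, beside 51.4% of the Hox genes. Of the 74, 64.9% had the same value on all arrays. Hhex, a homeobox gene of the vascular and blood lineage, was at 10.75 ± 0.37 and Meox1, a mesodermal one, at 10.50 ± 0.21, both above. Meox2, its vascular paralog, was at 6.66 ± 0.01 and Prrx1, a mesenchymal gene, at 6.95, both below. With the other prior 29 were above, 32 below and 13 not called.

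**Figure D3:**
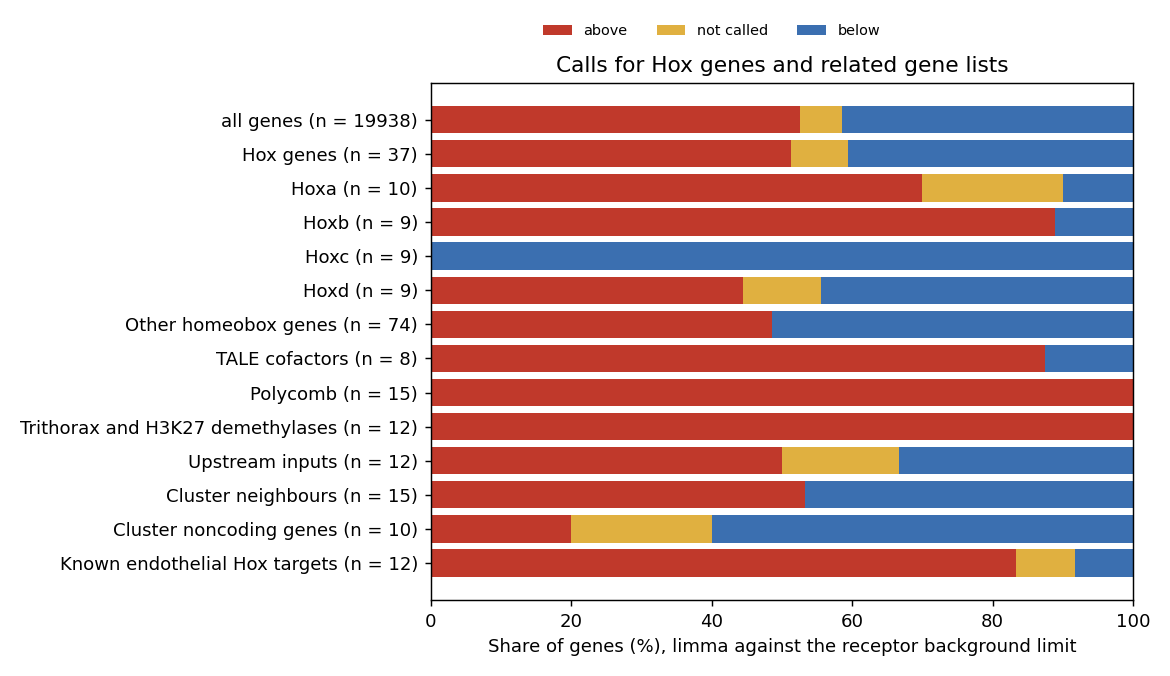
Percent of the measured genes of each list called above, below or not called against the receptor background by limma, with the number of measured genes beside each bar and all 19938 genes for comparison. All 15 Polycomb genes and all 12 genes of the trithorax-group and demethylase list, which also held Dot1l and Ctcf, were above. Of the Hox genes 19 of 37 were above, and of all genes 52.5%.

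The spread of the Hox genes between arrays was near that of all genes. Of 37, 18 had the same value on all 3 arrays (48.6%, against 46.3% of all genes), 9 had 2 values and 10 had 3 different ones. A gap between the highest and the lowest array of at least 0.3 was found in 5 members (13.5%), Hoxa2, Hoxa5, Hoxa11, Hoxb4 and Hoxb5, and in 14.4% of all genes. The widest was that of Hoxb5, at 0.58. Among members that varied, the median SD was 0.07, and among all such genes it was 0.08.

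The Hox genes as a set had a median difference of 0 on each array. Relative to the gene's mean on the other two arrays, 8 members were higher and 11 lower in replicate 1, 10 higher and 9 lower in replicate 2, and 10 higher and 9 lower in replicate 3. Hoxb5 and Hoxa5 were highest in replicate 1. Hoxa2, Hoxa11 and Hoxb4 were highest in replicate 3. Of the 8 endothelial markers, 6 were higher in replicate 1 than their mean on the other two arrays, 1 was lower and 1 was the same. The 4 thick ascending limb markers did not move together. Umod was highest in replicate 1 (11.61, 10.40 and 9.49), as was Slc12a1 (9.68, 8.07 and 7.81), whereas Cldn16 was lowest there (7.07, 7.34 and 7.34) and Kcnj1 was at 8.84 on all 3 arrays. The part of either cell type's RNA in the differences of the Hox genes was not tested.

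**Figure D4:**
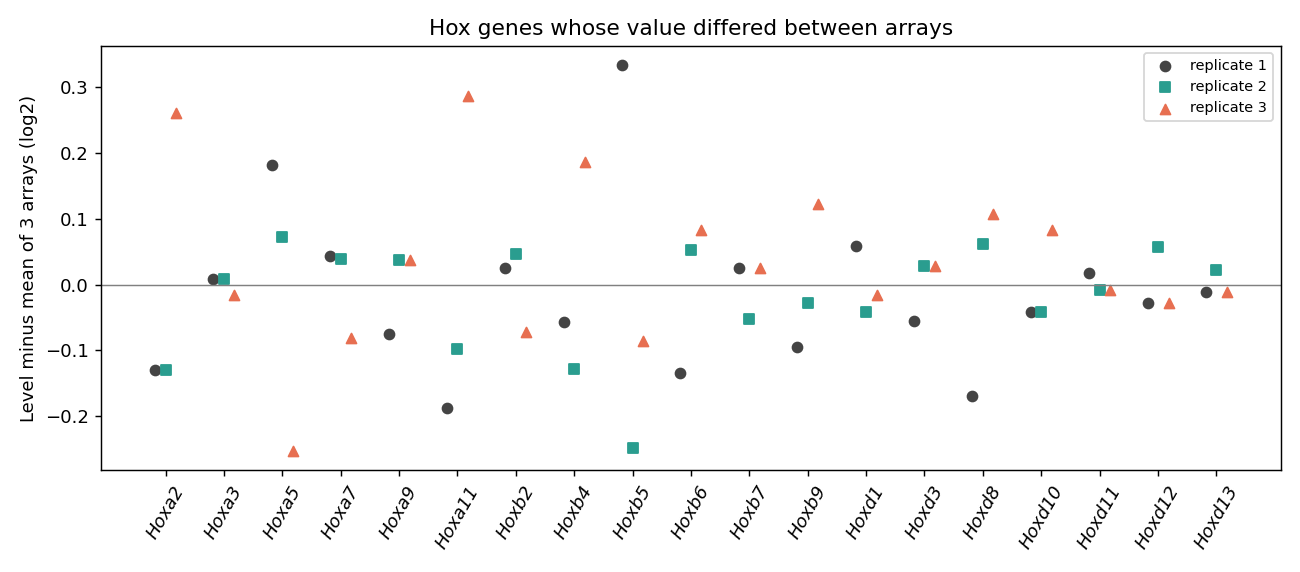
Difference of each array from the gene's mean (log2) for the 19 Hox genes with any spread over the arrays; colours give the replicate. Hoxb5 had the widest gap, 0.58, and 5 genes had a gap of at least 0.3.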

How the data were processed

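GFP-sorted medullary endothelial cells of Tie2-GFP mice gave 3 samples, each a pool of 2 kidneys, which the study describes as independent, and all were hybridised to 1-colour Affymetrix whole-transcript arrays. The values deposited by the authors are log2 levels per probe set, with the scale inferred from their range (3.55 to 14.4). The submitters' processing notes list Affymetrix Expression Console, whereas the paper's text gives GeneSpring and RMA, a method that subtracts background, matches the distributions of the arrays and combines probes by median polish. It is not stated whether the study's cutoff of 100 was applied on this scale. Neither genome build nor scan dates were given in the sources used here, so batches were not examined.

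Of 35557 probe sets, 21789 had 1 platform gene, 1621 several and 12147 none. Symbols were updated through Entrez identifiers to RefSeq GRCm38.p6 for 21698 of them (99.6%), and each of 19938 genes took its probe set with the highest mean. An intercept was fitted with limma 3.58.1 in R 4.3.3 (lmFit, eBayes, two-sided) to the log2 level minus each limit, with Benjamini-Hochberg adjustment over all genes and a threshold of 0.05. The fit was tested on simulated data. No result of that test is given here for genes with the same value on all arrays, so it is no check of their calls. Probe affinities differ, so levels of different genes were not ranked, and the precision is limited by the number of arrays. Arrays hold no counts.

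The members and gene lists were chosen with earlier results of these data known. Every measured Hox gene is named, those called above the receptor background or whose calls differed with each array's value. Of the other lists, the first 4 measured members, up to 3 members on the rarer side of the receptor background, and every noncoding gene of the clusters are named. Further genes (Rarb, Rarg, Gmnn and the markers) were chosen after their values were seen. Alternatives were the probe set per gene, median centring, quantile normalization, the prior variance, a filter at 50 units, all probe sets in the fit, leaving out each replicate, limits of 50 and 200 units, and the 90th and 99th percentiles of the receptor probe sets. Sequences were read from RefSeq tables of GRCm38.p6.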

Additional observations from a re-analysis of the deposited data

How the results depend on the processing

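With a filter at 50 units or all probe sets in the fit, no Hox count left its range of 1.5 times and no gene changed its call. The probe set rules could not change a Hox level, since each gene had 1 probe set. At 200 units in place of 100, 21 Hox genes were above (21 on every array), 14 below and 2 not called, with 0 of Hoxc and 6 of paralog groups 9 to 13 above. The signs that turned there, as log2 level minus limit, were -0.067 for Hoxa2, -0.12 for Hoxa11, -0.54 for Hoxa13, -0.051 for Hoxb13, -0.35 for Hoxc4, -0.85 for Hoxc5, -0.91 for Hoxc6, -0.43 for Hoxc8, -0.0068 for Hoxc9, -0.98 for Hoxc10, -0.44 for Hoxc12, -0.58 for Hoxc13, -0.15 for Hoxd1, -0.21 for Hoxd11 and -0.25 for Hoxd12. At 50 units, Hoxc11 turned to 0.89 and 0 genes were below. Against 100 units, the prior from genes with 3 different values gave 0 below and 4 not called, with 5 of Hoxc above, and median centring and quantile normalization each left 1 gene not called. Leaving out 1 replicate left 0 to 2 not called.

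Against the receptor background, its 99th percentile gave 11 above (12 on every array) and 24 below, with 4 of Hoxa, 5 of Hoxb, 2 of Hoxd, 1 of groups 1 to 3 and 0 of groups 9 to 13 above. Signs turned for Hoxa3 (-0.63), Hoxa9 (-0.058), Hoxa10 (-0.54), Hoxb1 (-0.045), Hoxb2 (-0.18), Hoxd3 (-0.42) and Hoxd9 (-0.14). At its 90th percentile (7.61), Hoxc9 (0.028), Hoxd10 (0.28) and Hoxd13 (0.22) turned, so 1 of Hoxc and 7 of groups 9 to 13 were above. The Hoxd genes above were then not contiguous, as Hoxd11 and Hoxd12 lay between them and were not above. Median centring and quantile normalization each left 1 gene not called. Leaving out 1 replicate gave 12 to 16 above and 8 to 11 not called, with 4 to 6 of Hoxa, 2 to 4 of Hoxd, 2 to 4 of groups 1 to 3 and 2 to 4 of groups 9 to 13 above. Changes of limit move these values by construction, fits without a replicate rest on 2 arrays, and other causes were not tested. The shares of all genes in the fits without a replicate were not counted. No paired analysis was possible because there is 1 group.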
